A study of Arabidopsis thaliana with 30 samples.

Results

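Transcripts that are high for a short time after a dry seed takes up water were the subject here. They were selected on their total mRNA: for each nuclear locus the means of the 3 total mRNA arrays per time point were taken, and the margin was the mean after 6 h of imbibition (6 HAI, hours after imbibition) minus the highest mean of dry seeds, 26, 48 and 72 HAI. Of 27720 loci, 9564 had a level above 5 on the log2 scale in all 3 total mRNA arrays at 6 HAI, and the 150 with the largest margin are the members described below. The deposited table holds 27827 rows in all.

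Samples were of Arabidopsis thaliana Col-0, a wild-type laboratory accession, measured on 30 Affymetrix Gene ST arrays. After-ripened seeds, which germinate without a dormancy break, were used dry or imbibed for 6, 26, 48 or 72 h. They lay on paper wetted with demineralized water, at 22°C in continuous light. There were 3 biological replicates per time point. Total mRNA was taken from the raw extract and polysomal mRNA, the mRNA bound to several ribosomes, from the polysome region of a sucrose gradient of that kind of extract, which gave 10 groups of 3 arrays. Values are log2 signals, levels under 4 were taken as noise, and a level of a gene can be compared between samples but not with that of another gene. Whole seeds and seedlings were extracted, so fewer cells of a type and less RNA per cell cannot be told apart.

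A dry seed holds stored mRNAs, and transcription restarts within hours of water uptake, before the seed coat splits and long before the root emerges. The early phase is known for the return of respiration in a tissue that is short of oxygen. It is also known for the response to signals that promote germination, such as nitrate, light and gibberellin. The machinery of transcription and translation is rebuilt as well. A transcript that is high at 6 HAI and low at 26 HAI is at its highest before germination can be seen.

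The arrays followed their labels. All 11 genes of seed storage and late maturation proteins tried were higher in total mRNA of dry seeds than at 72 HAI, and all 8 genes of photosynthesis were higher at 72 HAI. Replicate pairs correlated between 0.965 and 0.991 across genes, which are not independent, and array medians lay between 3.53 and 4.15. None of these marker genes is a member. The endosperm genes MAN7 and EXPA2, a mannanase and an expansin that soften the tissue round the root tip, were at 4.33 and 3.81 in total mRNA at 6 HAI and at 7.76 and 9.29 at 26 HAI. CYP707A2, the remaining endosperm marker tried, which breaks down abscisic acid, was highest at 6 HAI like the members, with 5.22 in dry seeds, 6.11 at 6 HAI and 3.98 at 26 HAI.

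The choice used the total mRNA, so its values are a description. The margin of the members ran from 0.92 to 2.99 with a median of 1.2, and 127 of the 150 had a margin above 1. The limit falls in a dense range. The last members were AT4G32050, AT1G55460 and SEU at 0.924, 0.920 and 0.917, and the first loci left out were CRF1, AT4G08510 and AT3G05220 at 0.915, 0.915 and 0.914. In total mRNA the members rose by a median of 1.54 between dry seeds and 6 HAI (range 0.92 to 4.91) and changed by a median of −1.39 between 6 and 26 HAI (range −5.01 to −0.92). The second highest time point was 26 HAI for 74 members, dry seeds for 58, 72 HAI for 10 and 48 HAI for 8. The mean in total mRNA of dry seeds was under the noise level for 19 members, for which the size of the rise is set in part by the background.

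As a check in arrays that the choice did not use, 150 loci were also chosen by the same rule from 2 replicate numbers and read in the 5 total mRNA arrays of the remaining number. Of those 150, 146, 147 and 149 had their highest value at 6 HAI in the arrays that were not used, without replicate numbers 1, 2 and 3 respectively. Among all loci above the level limit the shares were 29.2%, 28.9% and 27.1%. The lists so chosen shared 131, 129 and 128 loci with the 150 members.

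**Figure D1:**
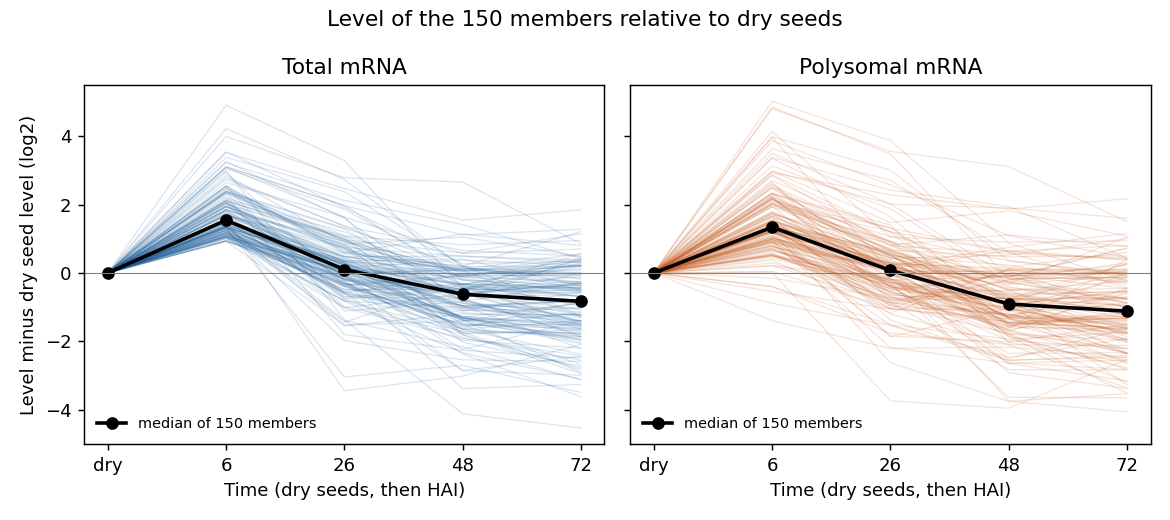
Mean level of each of the 150 members minus its mean in dry seeds (log2, vertical axis) by time point (horizontal axis), in total mRNA on the left and polysomal mRNA on the right, with the median as a black line. The median rises by 1.54 in total and 1.34 in polysomal mRNA at 6 HAI, and lies below the dry seed level at 72 HAI in both, and 6 members lie lower at 6 HAI than in dry seeds in polysomal mRNA.

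Polysomal mRNA was not used to choose the members, and the tests below compare means of polysomal groups alone. The spread of each gene was estimated from the arrays of both fractions, so the total mRNA arrays enter the standard errors and p-values. Polysomal mRNA is also a part of the mRNA in such extracts, so the tests are not fully independent of the choice. By 6 HAI 102 of the 150 members were upregulated against dry seeds (68.0%), against 16.9% of the 17061 genes tested and 22.7% of the 9564 genes above the level limit. The median log2 fold change was 1.34 for the members and 0.08 for all genes tested. Between 6 and 26 HAI 105 members were downregulated (70.0%), against 9.77% of all genes tested and 13.4% of those above the level limit, with a median of −1.28 against −0.05. A significantly higher level at 6 HAI than at each of the 4 other time points was found for 75 members, against 0.897% of the genes tested (153 genes) and 1.22% of those above the level limit. These counts are from limma with Benjamini-Hochberg adjustment over all genes tested, at a false discovery rate of 0.05 and a change of more than 1 on the log2 scale. Of the 150 members, 147 were above 4 in all arrays of a group other than 6 HAI. The rest entered the test by the 6 HAI groups alone and are kept in the counts. In dry seeds the polysomal mean was under 4 for 12 members, all 12 called higher at 6 HAI. The size of their rise is set in part by the background. Total and polysomal arrays of the same number at 6 HAI deviated from their group means with correlations of 0.05 to 0.09, and the labels do not say whether they share an extract.

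The 6 HAI maximum was present in the polysomal mRNA of most members. The polysomal mean was highest at 6 HAI for 144 members and in dry seeds for 6, whereas it was highest at 6 HAI for 18% of all genes tested and 25.6% of those above the level limit. All 3 polysomal arrays at 6 HAI were above the other 12 for 134 members (89.3%), against 8.02% of the genes tested. The polysomal margin, defined like the margin in total mRNA, had a median of 1.0 and ran from −1.40 to 3.95. Of the 150, 78 were called both higher at 6 HAI than in dry seeds and lower at 26 than at 6 HAI, 24 only the former, 27 only the latter and 21 neither. Among the 58 members whose second highest total mRNA was in dry seeds 33 had a called polysomal peak, and among the 74 with 26 HAI as the second highest 34 had it. The arrays are scaled to each other, so a change is relative to the other genes. With the array medians set equal, the median of all genes tested between 6 and 26 HAI moved from −0.05 to −0.31, and 139 members and 2797 of all genes were called lower at 26 HAI, and a peak was called for 97 members and 241 of all genes.

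Seedlings at 72 HAI were compared with dry seeds to see where the members ended. Polysomal mRNA was lower at 72 HAI than in dry seeds for 78 members (52.0%), against 31.1% of the genes tested, and higher for 7 (4.67%), against 30.2%. The median was −1.12 for the members and −0.14 for all genes tested. With equal array medians the counts were 95 and 3 for the members, and 6926 and 4140 for all genes in place of 5298 and 5146. The 7 that were higher, named after their values were seen, were HB1, RFNR2, AKR4C8, SOB5, AT3G03270, AT4G36550 and AT4G19670. The number was 4 without replicate 1 of polysomal mRNA at 72 HAI.

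**Figure D2:**
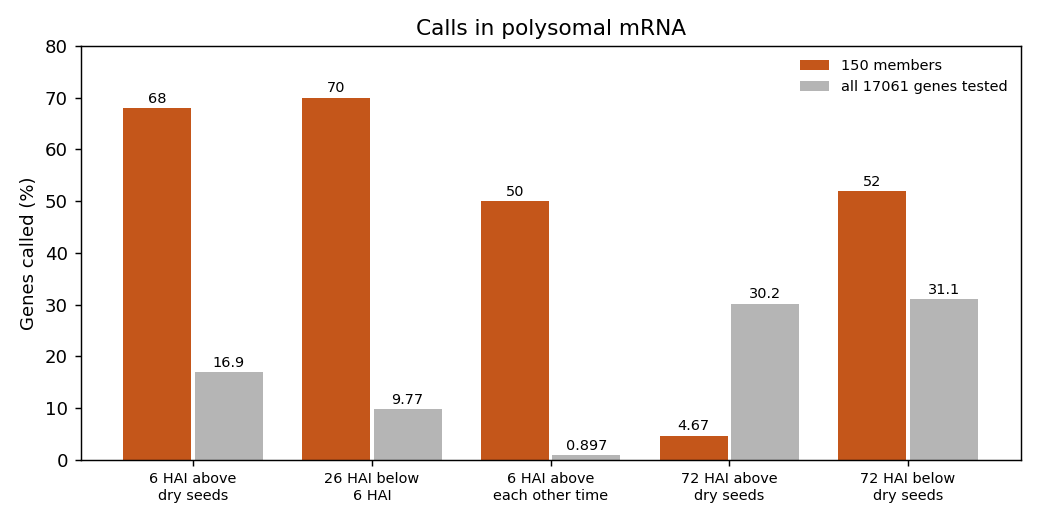
Share of genes called in polysomal mRNA by limma (%, vertical axis) in 5 comparisons, for the 150 members and for all 17061 genes tested. The members exceed all genes in the rise to 6 HAI (68.0 against 16.9%), the fall to 26 HAI (70.0 against 9.77%) and the peak (50.0 against 0.897%), and fall short in the rise to 72 HAI (4.67 against 30.2%). The choice itself required total mRNA at 72 HAI to be lower than at 6 HAI.

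The 10 members with the largest margin in total mRNA had margins of 1.98 to 2.99. MEE8 stood first. It is known from mutants whose embryos arrest after fertilization. Its polysomal mRNA was at 5.92, 5.91 and 6.54 in the 3 dry seed arrays, 10.16, 10.15 and 9.97 in those at 6 HAI, 6.48, 6.18 and 5.79 in those at 26 HAI, 2.27, 2.42 and 2.44 by 48 HAI and 2.50, 2.17 and 3.11 by 72 HAI. The 6 HAI arrays were the highest and did not overlap with any other group, and the 48 and 72 HAI arrays were under the noise level. In total mRNA it went from 6.96 ± 0.40 to 9.95 ± 0.10 and 5.60 ± 0.26 (SD, n = 3). The polysomal rise from dry seeds was 3.97 (standard error 0.24, limma adjusted p = 3.35e-13) and the change to 26 HAI −3.95 (standard error 0.24, limma adjusted p = 4.26e-13).

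AT5G65030, for which the gene table gives no name, was near the background at every time but 6 HAI. Polysomal levels were 2.53, 1.76 and 1.95 in the 3 dry seed arrays, 5.91, 6.20 and 6.54 in those at 6 HAI, 3.38, 2.96 and 3.05 in those at 26 HAI, 2.40, 3.23 and 3.31 by 48 HAI and 2.99, 3.38 and 2.68 by 72 HAI. Only the 6 HAI arrays passed the noise level. AT5G65030 was thus admitted to the test by the group in which it is high, as were AT5G02460 and CYP71B12, so the rise of 4.14 starts from the background and its p is not given. AT5G51440 behaved alike from a higher start. Its polysomal mRNA was at 6.89, 6.97 and 6.90 in the 3 dry seed arrays, 9.15, 8.99 and 9.18 in those at 6 HAI, 6.46, 6.46 and 6.63 in those at 26 HAI, 5.93, 5.97 and 5.72 by 48 HAI and 5.09, 4.60 and 4.33 by 72 HAI. It rose by 2.19 (standard error 0.19, limma adjusted p = 1.78e-10) and then changed by −2.59 (standard error 0.19, limma adjusted p = 1.12e-11), and its 72 HAI arrays were all below its dry seed arrays.

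OBP1, a Dof transcription factor that acts on genes of the cell cycle, was high at 6 HAI and near the noise level after 26 HAI. Its polysomal mRNA was at 6.96, 7.27 and 6.89 in the 3 dry seed arrays, 9.18, 9.09 and 9.02 in those at 6 HAI, 6.82, 7.04 and 7.45 in those at 26 HAI, 3.91, 4.08 and 4.37 by 48 HAI and 4.11, 3.18 and 3.71 by 72 HAI. The dry seed and 26 HAI arrays overlapped, and the 6 HAI arrays lay above both. The rise was 2.05 (standard error 0.24, limma adjusted p = 5.25e-08) and the change to 26 HAI −1.99 (standard error 0.24, limma adjusted p = 1.29e-07). AT5G05600, AT5G12110 and AT4G16024 also had a called polysomal peak, with rises of 2.66, 2.49 and 1.65 (limma adjusted p = 1.75e-11, 2.05e-09 and 9.75e-06). AT5G02460 was at 3.90, 3.50 and 4.14 in the 3 dry seed arrays, 6.27, 5.84 and 5.98 in those at 6 HAI and 3.96, 3.63 and 3.39 in those at 26 HAI, with means under the noise level at every time but 6 HAI in both fractions.

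The remaining members of the first 10 had the smallest rises to 6 HAI in polysomal mRNA among the 10. CYP71B12, a cytochrome P450, was at 4.39, 3.43 and 4.56 in the 3 dry seed arrays, 5.46, 4.89 and 5.42 in those at 6 HAI and 2.18, 2.12 and 2.56 in those at 26 HAI, and at or under 2.97 later. Its rise was 1.12 (standard error 0.39), from around the noise level. As CYP71B12 was admitted to the test by the 6 HAI group in which it is high, its call is not read here. The rise was 0.77 without replicate 2 of polysomal mRNA in dry seeds, and 1.02 without replicate 1 at 6 HAI. AT1G03220 rose by 0.92 in polysomal mRNA, under the fold limit, and by 1.09, within the call, without replicate 2 at 6 HAI. Its margin was 1.98 in total mRNA against 0.92 in polysomal mRNA. Its neighbour AT1G03230 is a member too, with margins of 1.3 and 0.52, and whether the probes of these neighbours tell them apart was not tested. The other pairs of neighbours among the members were NAC050 with NAC052 and CIP4.1 with AT4G00940.

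Ranked by the polysomal margin, MEE8 and AT5G65030 again stood first, followed by AT5G05600 (2.36), TPX2 (2.25), AT1G59860 (2.24), AT5G51440 (2.19), AT5G02460 (2.18) and AT5G12110 (2.17). TPX2 is a thioredoxin-dependent peroxidase, an enzyme that removes peroxides, with a close relative at the next locus, and whether the probes tell them apart was not tested. Polysomal levels were 6.0, 6.27 and 5.86 in the 3 dry seed arrays, 8.26, 8.39 and 8.50 in those at 6 HAI, 5.74, 6.03 and 6.24 in those at 26 HAI, 6.52, 5.96 and 5.91 by 48 HAI and 5.62, 6.16 and 6.62 by 72 HAI. The 3 arrays at 6 HAI were above all others, while the remaining groups overlapped. The rise was 2.34 (standard error 0.23, limma adjusted p = 2.91e-09) and the change to 26 HAI −2.38 (standard error 0.23, limma adjusted p = 3.21e-09). AT1G59860 was at 4.70, 4.33 and 4.43 in the 3 dry seed arrays, 6.45, 6.67 and 7.04 in those at 6 HAI and 4.05, 3.79 and 3.80 in those at 26 HAI. It rose by 2.24 (standard error 0.26, limma adjusted p = 5.25e-08).

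**Figure D3:**
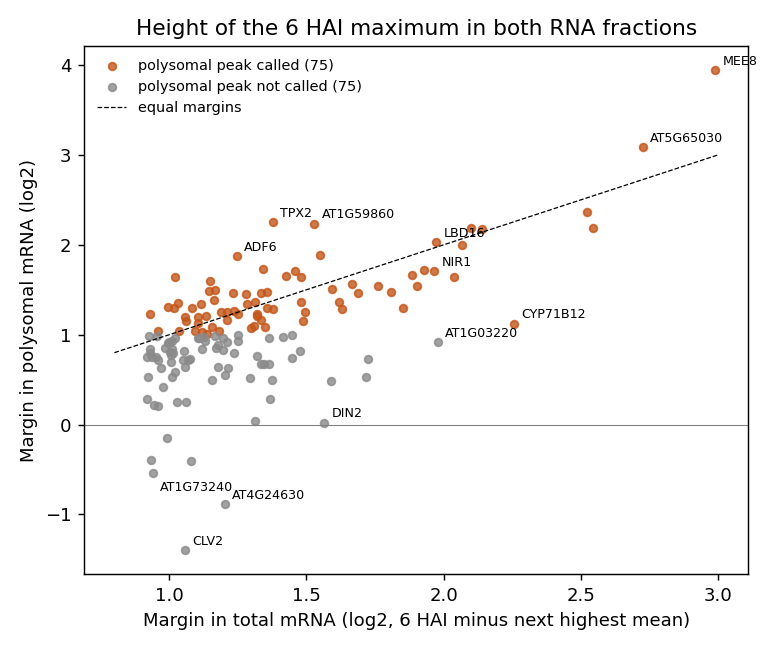
Margin of each member in polysomal mRNA (log2, vertical axis) against its margin in total mRNA (log2, horizontal axis), where the margin is the mean at 6 HAI minus the highest other mean. Orange points are the 75 members with a called polysomal peak and the dashed line marks equal margins. MEE8 is highest in both at 2.99 and 3.95, and CLV2 is lowest in polysomal mRNA at −1.40.

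Genes of nitrate assimilation were found at many ranks of the list. Seeds sense nitrate as a signal to germinate, and they reduce it to nitrite in the cytosol and then to ammonium in plastids, a step that draws electrons from ferredoxin. NIR1, the nitrite reductase, was 7.27, 7.47 and 7.27 in the 3 dry seed arrays, 9.44, 9.89 and 9.34 in those at 6 HAI, 8.0, 7.94 and 7.61 in those at 26 HAI, 5.66, 6.02 and 5.86 by 48 HAI and 4.79, 4.92 and 5.22 by 72 HAI in polysomal mRNA. Arrays at 6 HAI were above all others, those at 26 HAI were above the dry seed arrays, and those at 72 HAI were the lowest. The rise was 2.22 (standard error 0.16, limma adjusted p = 1.23e-11) and the change to 26 HAI −1.70 (standard error 0.16, limma adjusted p = 2.19e-09). UPM1, which makes the precursor of the siroheme cofactor of nitrite reductase, went from 6.91 ± 0.17 to 8.92 ± 0.23, 8.13 ± 0.08, 6.51 ± 0.16 and 5.92 ± 0.29 in polysomal mRNA over the 5 time points (SD, n = 3).

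The electron supply of nitrite reduction was present with 3 members. RFNR1 and RFNR2 are root-type reductases that pass electrons from NADPH to ferredoxin, and FD3 is a root-type ferredoxin. RFNR1 was at 6.08, 6.57 and 6.10 in the 3 dry seed arrays, 9.73, 9.64 and 9.52 in those at 6 HAI and 8.70, 8.78 and 8.54 in those at 26 HAI in polysomal mRNA. The rise of RFNR1 to 6 HAI was 3.38 (standard error 0.18, limma adjusted p = 3.78e-14). RFNR2 was at 4.95, 5.13 and 4.60 in the 3 dry seed arrays, 7.62, 8.11 and 7.88 in those at 6 HAI and 6.75, 7.12 and 6.84 in those at 26 HAI. From dry seeds to 6 HAI it rose by 2.98 (standard error 0.20, limma adjusted p = 1.84e-12). Both stayed above their dry seed arrays at 26 and 48 HAI, and RFNR2 was still higher at 72 HAI than in dry seeds by 1.60 (standard error 0.20, limma adjusted p = 3.94e-08). FD3 was at 9.98, 10.04 and 10.17 in the 3 dry seed arrays, 11.55, 11.44 and 11.41 in those at 6 HAI and 10.74, 10.75 and 10.64 in those at 26 HAI. FD3 rose by 1.40 (standard error 0.13, limma adjusted p = 8.26e-10).

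HB1, a non-symbiotic hemoglobin that removes nitric oxide and is induced by low oxygen, had one of the steepest rises. Its polysomal mRNA was at 3.83, 3.63 and 4.22 in the 3 dry seed arrays, 8.63, 8.45 and 9.01 in those at 6 HAI, 7.45, 7.65 and 7.24 in those at 26 HAI, 6.99, 7.09 and 6.94 by 48 HAI and 5.49, 5.51 and 5.20 by 72 HAI. All imbibed arrays were above those of dry seeds, whose mean was under the noise level. The rise was 4.81 (standard error 0.24, limma adjusted p = 1.47e-14) and the change to 26 HAI −1.25 (standard error 0.24, limma adjusted p = 0.000108). CIPK23, a kinase that acts on the nitrate transporter NRT1.1, was at 5.25, 5.33 and 5.45 in the 3 dry seed arrays, 7.59, 7.49 and 7.0 in those at 6 HAI and 6.43, 6.16 and 5.45 in those at 26 HAI. It rose by 2.02 (standard error 0.23, limma adjusted p = 3.88e-08).

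All 7 of these members rose in the polysomes by 6 HAI, by 1.40 to 4.81, and 3 of them had a called peak. Of all members 68.0% were called higher and 50.0% with a peak, and of all genes tested 16.9% and 0.897%. This nitrate group was put together after the values were seen, so its count supports nothing beyond the values. Among the 6 genes of nitrate uptake and reduction looked at beside it that are not members, the nitrate reductase NIA1 was 6.55 ± 0.16, 9.89 ± 0.09, 9.11 ± 0.08, 6.37 ± 0.28 and 6.47 ± 0.18 (SD, n = 3) in total mRNA over the 5 time points. It was highest at 6 HAI but by a margin of 0.78, under the limit. NRT1.1, the nitrate transporter and sensor, was highest at 72 HAI, with means of 7.79 at 6 HAI and 8.28 at 72 HAI in total mRNA. HB2, the other hemoglobin, was highest at 26 HAI in total mRNA, at 8.21 against 7.35 at 6 HAI. The nitrate reductase NIA2, the kinase CIPK8 and the transporter NRT2.7 were highest at 6 HAI in total mRNA, at 4.95, 5.47 and 9.55. In polysomal mRNA NIA2 was highest at 72 HAI and NRT2.7 in dry seeds. Over the whole list of 13 genes, 11 were highest at 6 HAI in total mRNA. Of these 7 are members, for which the choice required it. Among the 9564 loci above the level limit 2830 were highest there in total mRNA. In polysomal mRNA 9 of the 13 were highest at 6 HAI, against 18% of all genes tested, and these counts too support nothing beyond the values.

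**Figure D4:**
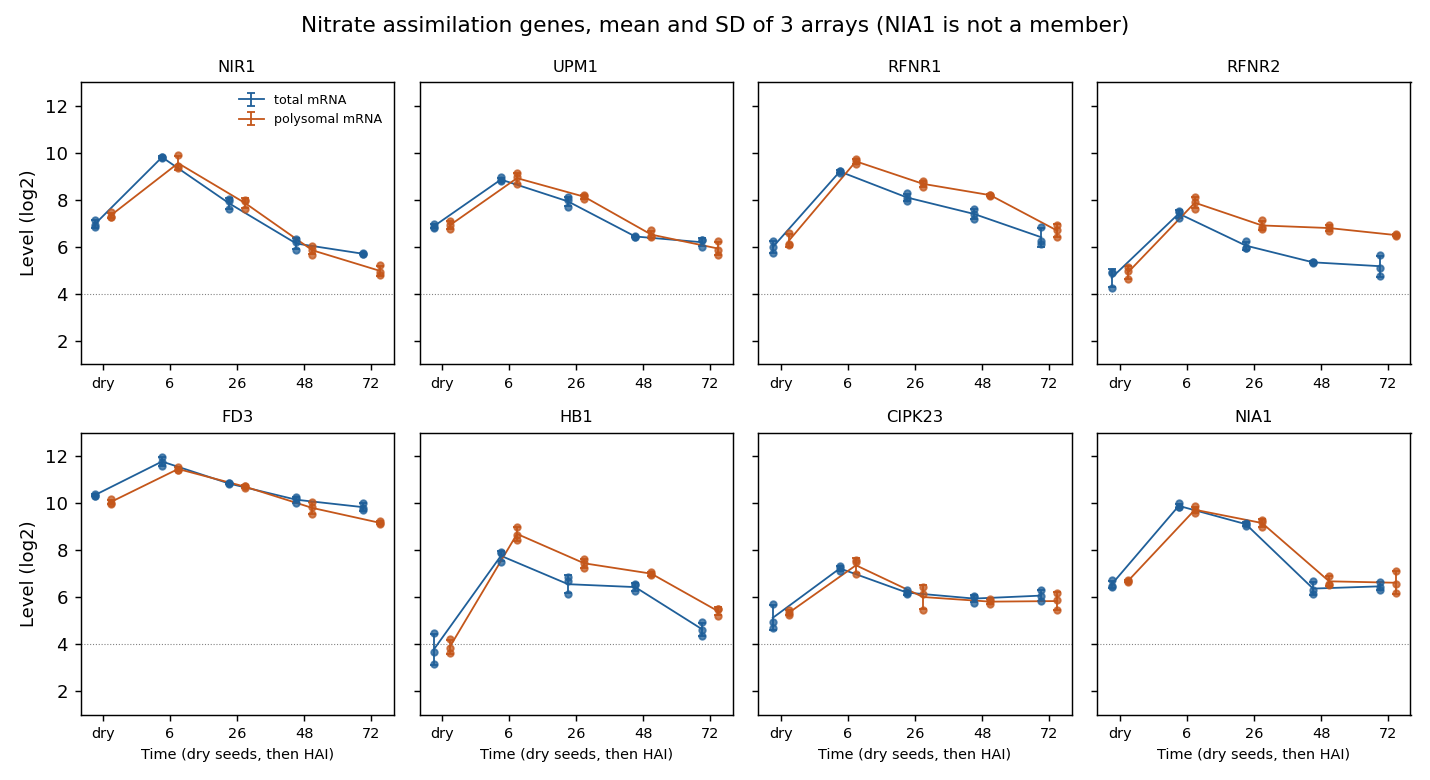
Level (log2, vertical axis) by time point (dry seeds, then HAI) of 7 members of nitrate assimilation and of NIA1, which is not a member. Points are arrays, lines join the means of 3 arrays with SD bars in total (blue) and polysomal (orange) mRNA, and the dotted line is the noise level of 4. All 7 members rise to 6 HAI in both fractions, HB1 from 3.89 to 8.70 in polysomal mRNA.

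Gibberellin synthesis was represented by GA20OX2 and GA20OX3, oxidases that make the precursors of active gibberellins, hormones that promote germination. GA20OX3 was at 2.86, 3.75 and 3.41 in the 3 dry seed arrays, 8.11, 8.03 and 8.43 in those at 6 HAI, 6.82, 6.66 and 6.98 in those at 26 HAI, 3.49, 3.53 and 2.51 by 48 HAI and 2.93, 2.19 and 2.27 by 72 HAI in polysomal mRNA. Only the 6 and 26 HAI arrays were above the noise level, and the 6 HAI arrays were above those at 26 HAI. The rise was 4.85 (standard error 0.26, limma adjusted p = 3.36e-14) and the change to 26 HAI −1.37 (standard error 0.26, limma adjusted p = 7.16e-05). GA20OX2 was at 2.80, 3.59 and 3.08 in the 3 dry seed arrays, 7.22, 6.78 and 7.07 in those at 6 HAI, 5.92, 5.73 and 5.56 in those at 26 HAI, 4.18, 4.06 and 4.51 by 48 HAI and 2.78, 3.26 and 4.78 by 72 HAI, with a rise of 3.86 (standard error 0.36, limma adjusted p = 6.6e-10). Its dry seed arrays were all under the noise level. Gene lists are read against all genes tested, of which 16.9% rose and 15.1% fell between dry seeds and 6 HAI, and 14.7% rose and 9.77% fell between 6 and 26 HAI, with medians of 0.08 and −0.05. Of 26 genes of gibberellin synthesis and response tested, 8 rose and 7 fell between dry seeds and 6 HAI, and 8 rose and 9 fell between 6 and 26 HAI, with medians of −0.24 and −0.01. IAGLU, which ties the auxin indoleacetic acid to glucose, was at 7.15, 6.47 and 7.06 in the 3 dry seed arrays, 9.64, 9.80 and 9.79 in those at 6 HAI and 7.97, 7.91 and 7.27 in those at 26 HAI. The rise of IAGLU to 6 HAI was 2.85 (standard error 0.20, limma adjusted p = 6.61e-12). Its polysomal mRNA stayed at or above 7.17 at 48 and 72 HAI.

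Grouped as transcription factors and their co-regulators were 28 of the members with a name, while MEE8 was left among those without a role. In polysomal mRNA 23 of them were called higher at 6 HAI than in dry seeds, 17 lower at 26 than at 6 HAI and 14 with a peak. These are 82.1%, 60.7% and 50% of them, against 68.0%, 70.0% and 50.0% of all members and 16.9%, 9.77% and 0.897% of all genes tested. The NAC family, plant-specific factors of stress, senescence and organ boundaries, gave 6 members, the most of the 20 gene lists tried. With 100 genes on the array it was also one of the longest lists. All 6 were among the 8 of 42 tested NAC genes that rose between dry seeds and 6 HAI, while 5 fell. The share that rose, 19%, was near the 16.9% of all genes tested. The share that fell to 26 HAI was 21.4%, against 9.77%. Between 6 and 26 HAI 3 NAC genes rose and 9 fell, or 16 fell with equal array medians, and the medians over the list were 0.23 and −0.62.

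NTL8, a membrane-bound NAC factor of the salt response of germinating seeds, was at 2.85, 2.67 and 2.44 in the 3 dry seed arrays, 7.49, 7.48 and 8.06 in those at 6 HAI, 6.52, 6.32 and 6.75 in those at 26 HAI, 3.31, 3.39 and 3.91 by 48 HAI and 1.75, 2.96 and 2.56 by 72 HAI in polysomal mRNA. It was under the noise level in every dry seed array and above 7 in every array at 6 HAI. The rise of 5.02 (standard error 0.29, limma adjusted p = 1.45e-13) was the steepest of the 150 members. Its change to 26 HAI of −1.15 (standard error 0.29, limma adjusted p = 0.00157) became −0.96, outside the call, without replicate 3 at 6 HAI. NAC13, which relays mitochondrial stress to the nucleus, was at 6.95, 6.78 and 7.29 in the 3 dry seed arrays, 8.72, 8.66 and 8.87 in those at 6 HAI, 6.63, 6.53 and 6.60 in those at 26 HAI, 6.48, 6.13 and 6.14 by 48 HAI and 7.36, 7.16 and 7.34 by 72 HAI. It was raised again at 72 HAI, where the arrays overlapped with those of dry seeds. The rise was 1.74 (standard error 0.17, limma adjusted p = 2.82e-09) and the change to 26 HAI −2.16 (standard error 0.17, limma adjusted p = 9.11e-11).

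NAP, a NAC factor of leaf senescence, was at 3.47, 3.02 and 2.93 in the 3 dry seed arrays, 6.80, 6.43 and 6.70 in those at 6 HAI and 5.21, 5.28 and 4.98 in those at 26 HAI. From dry seeds, where all 3 arrays were under the noise level, to 6 HAI it rose by 3.50 (standard error 0.27, limma adjusted p = 2.48e-11). NAC050, NAC052 and NAC014 rose less, by 1.53, 1.01 and 1.09 (limma adjusted p = 4.81e-08, 0.000154 and 3.5e-07). The mitochondrial stress list, which also holds NAC13, had 3 of 14 tested genes up and 4 down between dry seeds and 6 HAI, and 4 up and 3 down to 26 HAI, with medians of −0.11 and −0.28.

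Factors of meristems and new organs were among the others, named after their values were seen. WOX11 and WOX12 are homeobox factors that set the fate of root founder cells. WOX11 was at 2.79, 2.41 and 3.28 in the 3 dry seed arrays, 6.76, 6.96 and 6.72 in those at 6 HAI and 5.76, 5.78 and 5.96 in those at 26 HAI in polysomal mRNA. WOX11 rose by 3.98 (standard error 0.28, limma adjusted p = 6.33e-12). WOX12 was at 3.68, 3.20 and 3.51 in the 3 dry seed arrays, 6.75, 6.71 and 6.32 in those at 6 HAI and 5.70, 5.67 and 4.66 in those at 26 HAI. It rose by 3.13 (standard error 0.27, limma adjusted p = 2.5e-10). Both were under the noise level in polysomal mRNA of dry seeds and again at 48 and 72 HAI. None of the other 5 tested genes of this family was highest at 6 HAI in total mRNA. In polysomal mRNA 3 of the 7 tested were highest there, among them WOX2, a non-member, at 8.11 against 8.02 in dry seeds. Over all genes tested the share was 18%.

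LBD16, a LOB domain factor of lateral root initiation that responds to auxin, was at 5.33, 5.13 and 4.98 in the 3 dry seed arrays, 7.74, 7.56 and 7.62 in those at 6 HAI, 5.75, 5.61 and 5.47 in those at 26 HAI, 4.75, 4.84 and 4.55 by 48 HAI and 4.28, 4.55 and 4.41 by 72 HAI. Its arrays at 6 HAI were separate from all others, with a rise of 2.49 (standard error 0.16, limma adjusted p = 1.48e-12) and a change to 26 HAI of −2.03 (standard error 0.16, limma adjusted p = 8.59e-11). ASL5 and LBD40 of the same family rose by 1.48 and 1.71 (limma adjusted p = 2.41e-06 and 6.86e-06). Of the 12 tested LOB domain genes 5 were highest at 6 HAI in total mRNA, of which 3 are members, for which the choice required it. LBD41 was highest at 26 HAI at 8.04 and LBD21 at 72 HAI at 6.44. GRF5 and GRF8, growth-regulating factors, and AN3, the co-activator that binds such factors and promotes cell division in leaves, were members as well. GRF5 was at 4.90, 4.62 and 5.25 in the 3 dry seed arrays, 8.84, 8.44 and 8.38 in those at 6 HAI and 7.86, 7.54 and 7.50 in those at 26 HAI in polysomal mRNA. The rise of GRF5 to 6 HAI was 3.63 (standard error 0.20, limma adjusted p = 6.09e-14). AN3 was at 8.32, 7.80 and 8.19 in the 3 dry seed arrays, 10.69, 10.13 and 10.35 in those at 6 HAI and 8.81, 8.61 and 8.78 in those at 26 HAI. From dry seeds to 6 HAI it rose by 2.29 (standard error 0.17, limma adjusted p = 1.37e-11), and GRF8 rose by 1.17 (standard error 0.16, limma adjusted p = 4.72e-07). Of the 12 tested genes of growth-regulating factors and their co-activators 6 were highest at 6 HAI in total mRNA, of which 3 are members. GRF1 and GRF3, non-members, were highest there by margins of only 0.036 and 0.005. GRF7, also a non-member, was lowest there at 3.45 and highest at 48 HAI at 7.37. Among the 9564 loci above the level limit 2830 were highest at 6 HAI in total mRNA.

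PIL5, also called PIF1, a light-labile factor that holds back germination in the dark, was at 6.62, 6.20 and 6.58 in the 3 dry seed arrays, 8.64, 8.39 and 8.36 in those at 6 HAI and 7.42, 7.11 and 6.99 in those at 26 HAI. PIL5 rose by 2.0 (standard error 0.16, limma adjusted p = 5.63e-11). In the light signalling list that holds it, 7 of 47 tested genes rose and 7 fell between dry seeds and 6 HAI, and 5 rose and 7 fell to 26 HAI, or 12 fell with equal array medians, with medians of −0.08 and −0.48. The share that rose to 6 HAI, 14.9%, was near that of all genes. ERF2, an ethylene response factor, rose by 0.84, under the fold limit, and changed by −2.37 (standard error 0.23, limma adjusted p = 2.27e-09) to 26 HAI. In its list of AP2/ERF factors 12 of 46 tested genes rose and 6 fell to 6 HAI, and 5 rose and 15 fell to 26 HAI, with medians of 0.25 and −0.36. TFIIIA, a factor of ribosomal RNA genes, rose by 2.10, bZIP23 by 1.21 and AGL18 by 1.23 (limma adjusted p = 2.15e-09, 0.000122 and 2.67e-07). HSI2, a repressor of seed maturation genes, and SEU, a co-repressor, had changes of 0.53 and 0.29 that were under the fold limit.

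**Figure D5:**
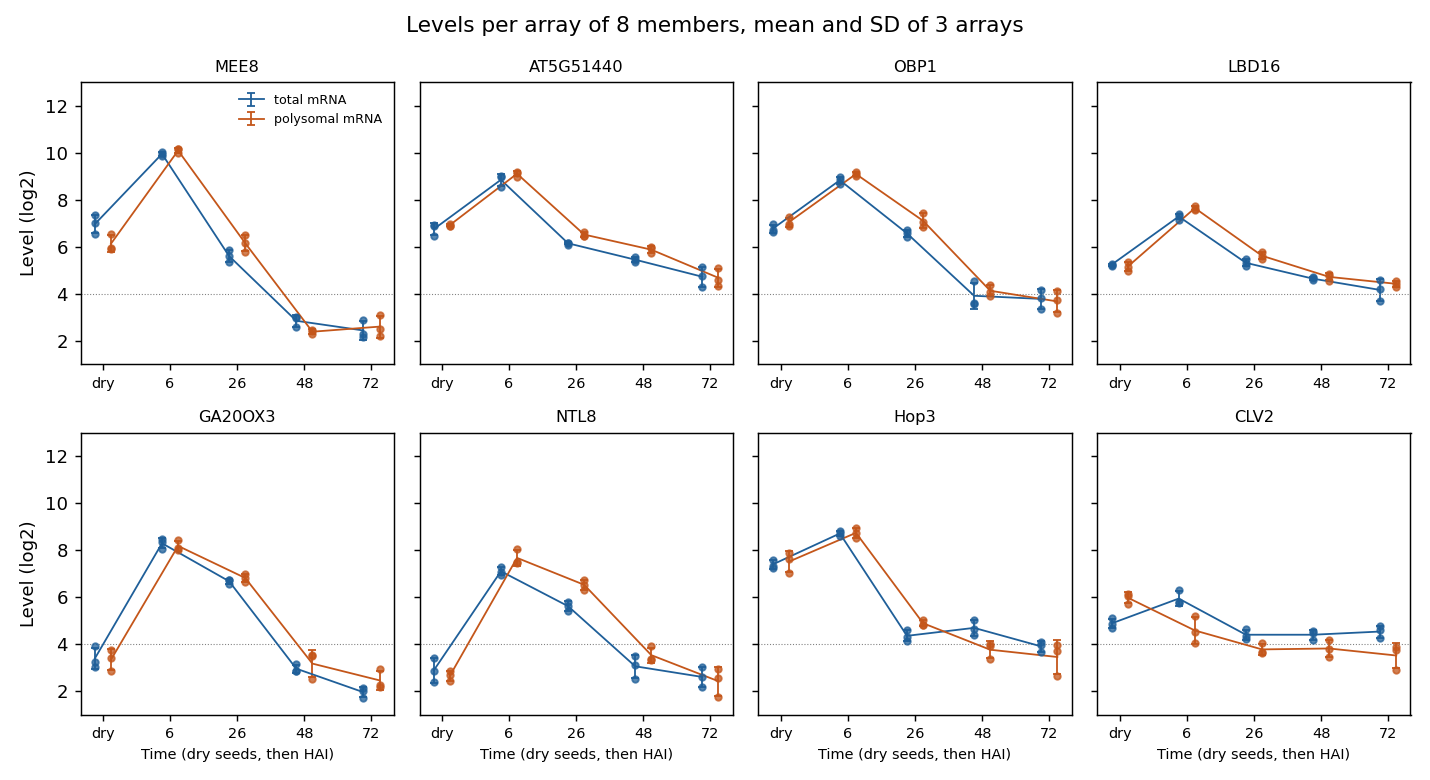
Level per array (log2, vertical axis) by time point (dry seeds, then HAI) of 8 members, with means and SD of 3 arrays in total (blue) and polysomal (orange) mRNA and the noise level of 4 as a dotted line. For 7 of them all 6 HAI arrays lie above those of every other time point in both fractions, and for CLV2 polysomal mRNA falls from 5.98 in dry seeds to 4.59 at 6 HAI while total mRNA rises from 4.89 to 5.94.

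Among the members with a symbol, 3 belong to protein folding, all with a called peak. A peak was called for 50.0% of all members and 0.897% of all genes tested. Hop3, the co-chaperone that links Hsp70 to Hsp90, was at 7.65, 7.02 and 7.89 in the 3 dry seed arrays, 8.96, 8.75 and 8.52 in those at 6 HAI, 5.03, 4.83 and 4.82 in those at 26 HAI, 4.02, 3.36 and 3.92 by 48 HAI and 3.73, 2.65 and 3.99 by 72 HAI in polysomal mRNA. The arrays at 26 HAI were all below those of dry seeds. The rise was 1.23 (standard error 0.26, limma adjusted p = 0.000218) and the change to 26 HAI −3.85 (standard error 0.26, limma adjusted p = 3.35e-12). AtCDC48B, an ATPase that unfolds tagged proteins, and J11, a J-domain protein, had rises of 1.29 and 1.50 and changes to 26 HAI of −2.50 and −1.89. All 3 were lower at 72 HAI than in dry seeds. No member carries a symbol of the list of heat shock proteins and heat factors, and members known by a locus number alone could not be placed in it. In that list 10 of 52 tested genes rose and 5 fell to 6 HAI and 5 rose and 21 fell to 26 HAI, with medians of 0.33 and −0.49.

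Of the 9 members of carbon and amino acid metabolism 7 were downregulated between 6 and 26 HAI in polysomal mRNA, whereas 2 were upregulated between dry seeds and 6 HAI. These are 77.8% and 22.2% of them, against 70.0% and 68.0% of all members and 9.77% and 16.9% of all genes tested. AT4G33070, for which the gene table lists PDC1 as a synonym, encodes pyruvate decarboxylase, the enzyme that opens ethanol fermentation. It was at 6.98, 6.77 and 6.81 in the 3 dry seed arrays, 7.82, 8.15 and 8.33 in those at 6 HAI and 6.90, 7.02 and 7.12 in those at 26 HAI. It rose by 1.25 (standard error 0.22, limma adjusted p = 2.49e-05). AlaAT1, alanine aminotransferase, which stores pyruvate carbon as alanine when oxygen is short, was at 6.98, 7.21 and 6.92 in the 3 dry seed arrays, 8.22, 8.62 and 8.36 in those at 6 HAI and 7.41, 7.39 and 7.03 in those at 26 HAI. The rise of AlaAT1 to 6 HAI was 1.37 (standard error 0.19, limma adjusted p = 5.46e-07). PDC2 and ADH1, a second pyruvate decarboxylase and alcohol dehydrogenase, are not members and were highest in dry seeds, at 9.88 and 10.87 in total mRNA against 8.56 and 10.65 at 6 HAI.

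PPDK and PPC2, enzymes between pyruvate, phosphoenolpyruvate and oxaloacetate, changed by 0.92 and 0.90 to 6 HAI, under the fold limit, as did SIP2, of raffinose sugar metabolism, with 0.99 and TRA2, a transaldolase, with 0.80. DIN2, a beta-glucosidase induced by darkness, was at 6.29, 5.45 and 6.55 in the 3 dry seed arrays, 6.20, 5.76 and 6.41 in those at 6 HAI and 1.90, 2.23 and 2.94 in those at 26 HAI in polysomal mRNA. Dry seed and 6 HAI arrays overlapped, with a change of 0.02 (standard error 0.40, limma adjusted p = 0.967), and the change to 26 HAI was −3.76 (standard error 0.40, limma adjusted p = 1.14e-08). Total mRNA of DIN2 was 5.68 ± 0.81 in dry seeds and 7.25 ± 0.16 at 6 HAI (SD, n = 3). UGT84A2, a glucosyltransferase of sinapate esters, rose by 1.34 (standard error 0.14, limma adjusted p = 3.88e-09), and in its list 8 of 47 tested UDP-glycosyltransferases rose and 9 fell to 6 HAI, and 11 rose and 14 fell to 26 HAI, with medians of −0.06 and −0.28.

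Factors of RNA processing and ribosome assembly gave 8 members, of which 6 rose to 6 HAI and 4 fell to 26 HAI in polysomal mRNA. These are 75% and 50% of them, against 68.0% and 70.0% of all members and 16.9% and 9.77% of all genes tested. NUC-L2, a nucleolin that acts in the nucleolus, was at 4.18, 4.38 and 4.12 in the 3 dry seed arrays, 6.90, 7.02 and 6.87 in those at 6 HAI and 5.72, 5.45 and 5.09 in those at 26 HAI. From dry seeds to 6 HAI it rose by 2.71 (standard error 0.25, limma adjusted p = 7.47e-10). It was the single member among 34 tested genes of nucleolus and ribosome assembly, of which 26 rose and 1 fell between dry seeds and 6 HAI, with a median of 1.38. Between 6 and 26 HAI 2 of that list fell, with a median of 0.11, and NUC-L2 was 1 of the 2 with a change of −1.51 (standard error 0.25, limma adjusted p = 1.31e-05). SCL33, a splicing factor, rose by 1.59, and UBA1A and SMP1, of mRNA binding and splicing, by 1.19 and 1.16 (limma adjusted p = 1.7e-08, 7.5e-05 and 2.39e-05). emb1507, a helicase of the spliceosome, and ECT4, a reader of methylated adenosine in mRNA, had changes of 0.42 and 0.22, under the fold limit. The calcium list, which holds CIPK23, had 11 of 59 tested genes up and 9 down to 6 HAI, and 11 up and 5 down to 26 HAI, with medians of 0.18 and 0.00.

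No member was matched by symbol to the remaining 12 of the 20 gene lists. Of the members 71 carry a locus number as their symbol in the gene table and could not be matched, so an unlisted relative may be among them. The 12 lists cover jasmonate, abscisic acid, early auxin response, ethylene, WRKY factors, ZAT and AZF factors, glutathione transferases, heat shock proteins, mitochondrial import, cell wall loosening, phenylpropanoids and RNA polymerase subunits. Of these, mitochondrial import had 13 of 23 tested genes up between dry seeds and 6 HAI, with a median of 1.16, and a median of 0.20 to 26 HAI. Abscisic acid had 12 of 44 up and 18 down in the same comparison, with a median of −0.07. By symbol, 13 members fell in any of the lists.

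Of the members 146 encode proteins, 3 are miRNA precursors and 1 is a small nucleolar RNA. MIR156c, whose miRNA represses SPL factors of the juvenile phase, was at 6.61, 6.42 and 6.47 in the 3 dry seed arrays, 8.38, 8.44 and 8.25 in those at 6 HAI, 6.17, 6.32 and 6.15 in those at 26 HAI, 4.72, 5.20 and 5.49 by 48 HAI and 5.05, 4.87 and 4.73 by 72 HAI in total mRNA. In polysomal mRNA it was at 6.14, 6.32 and 6.0 in the 3 dry seed arrays, 7.53, 7.18 and 7.63 in those at 6 HAI and 5.22, 5.10 and 6.02 in those at 26 HAI. MIR156c rose by 1.29 (standard error 0.22, limma adjusted p = 1.69e-05). The 6 HAI arrays were the highest in both fractions, and at 6 HAI the 3 polysomal arrays were below the 3 total mRNA arrays. MIR403 and MIR390a, which target the silencing gene AGO2 and start the making of small RNAs against auxin response factors, had margins of 1.72 and 1.21 in total mRNA and polysomal changes of 0.53 and 0.63 between dry seeds and 6 HAI (limma adjusted p = 0.133 and 0.113). The small nucleolar RNA AT1G03935 had a margin of 0.99 in total mRNA and −0.15 in polysomal mRNA.

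The 85 members without a role in these groups, most of them known by a locus number, were counted apart. Of them 57 were called higher at 6 HAI than in dry seeds in polysomal mRNA, 65 lower at 26 than at 6 HAI and 46 with a peak, or 67.1%, 76.5% and 54.1%, near the shares of all members (68.0%, 70.0% and 50.0%), with 16.9%, 9.77% and 0.897% of all genes tested. ADF6, which cuts actin filaments, was at 5.35, 4.82 and 5.27 in the 3 dry seed arrays, 7.87, 7.55 and 7.85 in those at 6 HAI and 5.22, 4.94 and 5.41 in those at 26 HAI, with a rise of 2.61 (standard error 0.24, limma adjusted p = 7.16e-10) and a change of −2.56 (standard error 0.24, limma adjusted p = 1.45e-09) to 26 HAI. TUA1, an alpha-tubulin best known from pollen, rose by 1.52 (standard error 0.25, limma adjusted p = 7.94e-06) and changed by −0.99, just under the fold limit, to 26 HAI. The transporter ABCB15 rose by 1.67 (standard error 0.40, limma adjusted p = 0.00071), and SOB5, known from mutants with high cytokinin levels, was at 3.65, 3.88 and 3.62 in the 3 dry seed arrays, 6.21, 5.67 and 6.30 in those at 6 HAI and 5.02, 4.57 and 4.27 in those at 26 HAI. It rose by 2.35 (standard error 0.25, limma adjusted p = 1.2e-08), from dry seed arrays under the noise level. Of the transcriptional regulators not described above, NPR3, a receptor of salicylic acid, changed by 1.08 to 6 HAI and −1.55 to 26 HAI, and ARF17, an auxin response factor, by 0.98 and −0.69 (limma adjusted p to 6 HAI = 0.00317 and 8.21e-05).

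Apart from NPR3, 3 members were grouped as receptors, and none of them was called higher at 6 HAI in polysomal mRNA. Of all members 68.0% were so called, and of all genes tested 16.9%. HK1, a histidine kinase that senses osmotic stress, was at 4.26, 3.90 and 4.15 in the 3 dry seed arrays, 5.26, 5.01 and 4.96 in those at 6 HAI and 4.21, 4.01 and 3.43 in those at 26 HAI in polysomal mRNA, with a change of 0.97 (standard error 0.20, limma adjusted p = 0.000157) to 6 HAI and −1.19 (standard error 0.20, limma adjusted p = 1.71e-05) to 26 HAI. LecRK-I.9, the receptor of extracellular ATP, was at 4.46, 4.48 and 4.69 in the 3 dry seed arrays, 5.44, 4.82 and 5.39 in those at 6 HAI and 4.20, 4.55 and 4.04 in those at 26 HAI, with a change of 0.68 (standard error 0.19, limma adjusted p = 0.0029) to 6 HAI. For these the maximum in total mRNA at 6 HAI was 5.90 ± 0.21 and 6.18 ± 0.24 against 3.11 ± 0.33 and 4.49 ± 0.34 in dry seeds (SD, n = 3).

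For a few members, among them the remaining receptor, the maximum at 6 HAI was not in the polysomal mRNA. CLV2, a receptor-like protein of the CLAVATA pathway that limits meristem size, was at 4.70, 5.10 and 4.85 in total mRNA of dry seeds and 6.31, 5.78 and 5.74 at 6 HAI. In polysomal mRNA it was at 6.06, 5.73 and 6.16 in the 3 dry seed arrays, 5.20, 4.05 and 4.51 in those at 6 HAI, 3.63, 3.67 and 4.03 in those at 26 HAI, 3.80, 3.46 and 4.20 by 48 HAI and 3.90, 3.75 and 2.91 by 72 HAI. The dry seed arrays were thus the lower ones in total and the higher ones in polysomal mRNA, with no overlap in either. The polysomal change was −1.40 (standard error 0.26, limma adjusted p = 4.62e-05), and CLV2 was the single member called lower at 6 HAI than in dry seeds.

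AT4G24630 was at 6.61, 6.95 and 6.46 in the 3 dry seed arrays, 5.85, 5.75 and 5.76 in those at 6 HAI and 4.75, 5.18 and 5.47 in those at 26 HAI in polysomal mRNA, and at 4.73, 5.50 and 4.93 and 6.27, 6.07 and 6.42 in total mRNA of dry seeds and 6 HAI. Its polysomal change of −0.89 (standard error 0.31, limma adjusted p = 0.0169) was under the fold limit. AT1G73240, AT5G66820 and AT5G01950 had polysomal changes of −0.54, −0.40 and −0.40 between dry seeds and 6 HAI, which did not pass, against rises of 1.1, 1.08 and 0.93 in total mRNA. AT5G66820 changed by −1.11 (standard error 0.23, limma adjusted p = 0.000256) between 6 and 26 HAI, and this became −0.98 and −1.0, outside the call, without replicates 1 and 3 at 6 HAI. AT5G01950 changed by −1.37 (standard error 0.23, limma adjusted p = 1.46e-05) to 26 HAI.

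Polysome occupancy, the level in polysomal minus that in total mRNA, contains the values that chose the members and is given as a description. From dry seeds to 72 HAI its median over the members was 0.22, 0.15, 0.21, 0.12 and 0.15 at the 5 time points. Over all genes tested the medians were 0.09, 0.06, 0.05, 0.10 and 0.07 in the same order. Over the genes above the level limit they were 0.16, 0.07, 0.08, 0.14 and 0.12, so the members lay below these genes at 48 HAI. At 6 HAI 13 members had a polysomal level more than 1 below that in total mRNA. The value for CLV2 was 1.1 in the dry seed and −1.36 after 6 h, and that for NAP changed from −0.25 to 1.3.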

How the data were processed

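The authors hybridized 30 Affymetrix Arabidopsis Gene 1.1 ST arrays and deposited log2 values per gene computed by RMA, which corrects the background, equalizes the probe distributions and summarises probes per gene. Labelling kits differ between the sources (3′ IVT Express in the methods, whole-transcript kits in the labels), and total RNA is the molecule named for all arrays, polysomal ones included. The values were used as deposited, and 0 columns of other samples were left unused. Groups came from the labels, which call the replicates biological. Array number and signal over background limit the precision.

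Genes above 4 in all 3 arrays of at least 1 of the 10 groups were tested (17061). A model with a mean per group was fitted to all 30 arrays with limma 3.58.1 (R 4.3.3), with empirical Bayes moderation and Benjamini-Hochberg adjustment per contrast. Calls needed a false discovery rate below 0.05 and more than a 2-fold change. The fit was tested on simulated data. Symbols came from the RefSeq table of TAIR10.1, which held all 150 members. Members and gene lists were chosen with earlier results of these data known. Lists were matched by gene name. Named genes are the 10 with the largest margin, the 8 with the largest polysomal margin among called peaks without overlap, the 5 with the lowest polysomal margin and the first 3 members of each list, and others were named after their values were seen. Alternatives were other filters, scalings, tests, fold limits, a replicate block and leaving out arrays. Sequences and promoter motifs were not analysed here.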

Additional observations from a re-analysis of the deposited data

Results flagged for a closer look

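For 4 members every total mRNA array was higher at 6 HAI than in dry seeds and every polysomal array was lower, so that the fractions moved in opposite directions. They were CLV2, AT4G24630, AT1G73240 and AT5G66820. The polysomal log2 change between dry seeds and 6 HAI was −1.40 for CLV2, −0.89 for AT4G24630, −0.54 for AT1G73240 and −0.40 for AT5G66820, against rises of 1.06, 1.2, 1.1 and 1.08 in total mRNA. Of these polysomal falls only that of CLV2 was called, and those of AT4G24630, AT1G73240 and AT5G66820 were under the fold limit. The difference between the fractions was not tested, since the total mRNA chose these genes.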

How the results depend on the processing

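The counts of members called in polysomal mRNA kept within 1.5 times of their value under the filters on low levels, the scalings, a fit of the polysomal arrays alone and an intensity trend with robust moderation, apart from the following. Under limma's treat, which tests for more than a 2-fold change, 63 members were higher at 6 HAI than in dry seeds, 48 were lower at 26 than at 6 HAI, 24 had a polysomal peak and 2 were higher at 72 HAI than in dry seeds. With no limit on the fold change 132 had a peak and 15 were higher at 72 HAI. With equal array medians 3 were higher at 72 HAI. Leaving out each polysomal array in turn gave 97 to 105 members higher at 6 HAI, 105 to 107 lower at 26 HAI, 73 to 82 with a peak, and 4 to 9 higher and 77 to 81 lower at 72 HAI than in dry seeds. The cause of these moves was not tested.

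The rule found 123 of the 150 members again with equal array medians, 130 with a further quantile normalization, 133 with medians of the arrays, 129 with a level limit of 4, and 128 to 131 when a replicate number of total mRNA was left out. For the members named by rule no change turned its sign under any of these settings, which were not run gene by gene for the others. Some crossed the threshold, 14 out of and 9 into the call under other settings, and 5 out of and 3 into it when an array was left out. Same-numbered polysomal arrays deviated together with a median correlation of 0.07 (from −0.17 to 0.26, with 7 of 30 above 0.1), so the number was not taken as a pairing, and with the replicate number as a block the counts were 102, 105, 75, 7 and 78, as without it. Changes smaller than 2-fold are hard to call with 3 arrays, and levels under 4 carry little information.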
